A study of Mus musculus with 11 samples.

Results

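The 10 genes described here encode intermediate filaments, a tubulin, transcription factors and membrane proteins of spiral ganglion neurons, and they were taken by symbol from the 18667 genes listed for every cochlea. They are Nefl (NCBI gene 18039), Nefm (18040), Nefh (380684), Prph (19132), Tubb3 (22152), Gata3 (14462), Pou4f1 (18996), Runx1 (12394), Lypd1 (72585) and Ntrk3 (18213). RNA-Seq had been run on whole cochleae of 2-month-old mice on the C57BL/6J background, with 5 libraries from Atf6+/+ littermates and 6 from Atf6-/- mice, 1 cochlea in each. The Atf6-/- animals are null throughout the body, because a stop codon in exon 4 leaves no ATF6 protein, and both genotypes share the Cdh23 ahl allele of the C57BL/6J strain, which causes hearing loss with age. Both sexes were included in each genotype. Which cochleae came from the same animal was not stated, so every p-value below measures the spread between these cochleae. All values are FPKM, sequenced fragments scaled by transcript length and by the total mapped in each library.

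Spiral ganglion neurons carry the signals of hair cells to the brainstem. Type I neurons, the large majority, contact inner hair cells and have thick myelinated axons, whose calibre depends on neurofilaments, whereas the sparse type II neurons contact outer hair cells and keep peripherin in the adult. Type I neurons fall into subtypes that are told apart by genes such as Calb2, Calb1, Runx1, Pou4f1 and Lypd1. Neurofilaments, peripherin, Tubb3, Pou4f1, Runx1 and Ntrk3 are not exclusive to the cochlea, since the somatosensory neurons of cranial and dorsal root ganglia make them as well.

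None of the 10 genes reached an adjusted p under 0.05 between genotypes (limma, Benjamini-Hochberg over 16169 genes tested, adjusted p between 0.415 and 0.988), against a background of 0.068% of all genes tested. Every member was above the filter of a mean of 0.1 FPKM. An unadjusted limma p no higher than 0.05 with a log2 fold change beyond 0.05 in either direction, cutoffs modelled on those of the study, counted 2 of the 10, Gata3 as higher and Pou4f1 as lower in Atf6-/- cochleae. Of all genes tested, 9.85% passed the same criterion, 4.48% as higher and 5.37% as lower. No member separated the genotypes completely, as 1.25% of all genes did. The log2 fold change was below 0 for 7 of the 10 and for 54.7% of all genes, and its median was -0.05 over the 10 and -0.01 over all genes. In RNA from whole tissue, fewer cells of a type and less RNA per cell cannot be told apart. The deleted gene itself, Atf6, lay between 8.25 and 10.6 FPKM in Atf6+/+ and between 3.83 and 4.59 FPKM in Atf6-/- cochleae, so the libraries bore out their labels.

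**Figure D1:**
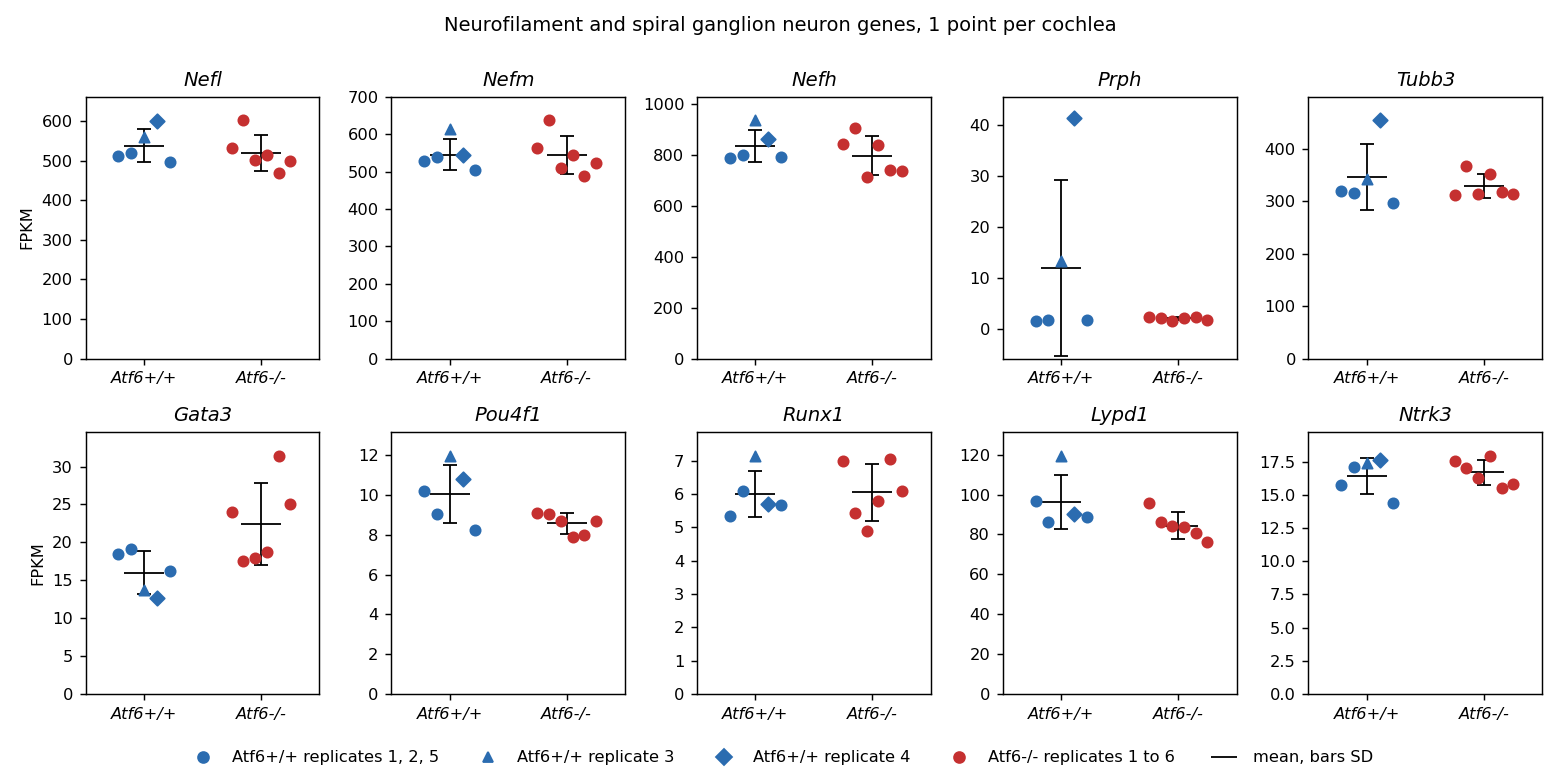
FPKM of the 10 genes in each cochlea (1 point per library, vertical axes in FPKM and scaled to each gene), with horizontal lines at the mean and bars of 1 SD for 5 Atf6+/+ and 6 Atf6-/- libraries. Atf6+/+ replicates 3 (triangle) and 4 (diamond) stand above the other points for Prph at 13.3 and 41.5 FPKM, and 3 of the 6 Atf6-/- points for Gata3 lie above every Atf6+/+ point.

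The neurofilament triplet was among the most abundant RNA of the cochlea and was nearly level between genotypes. Nefh, Nefm and Nefl, the heavy, medium and light subunits, ranked 45, 86 and 93 of the 16169 genes by mean FPKM. The subunits together took 0.333% to 0.435% of the summed FPKM of a library in Atf6+/+ and 0.343% to 0.448% in Atf6-/- cochleae. In every one of the 11 libraries Nefh was above Nefm, by a factor of 1.40 to 1.58. Nefm and Nefl lay so close that their order changed in 1 of 11 libraries, with Nefm at 0.904 to 1.09 times Nefl.

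Nefl, the core subunit without which the others do not assemble, was at 513, 520.1, 561, 601 and 498 FPKM in Atf6+/+ replicates 1 to 5. In Atf6-/- cochleae the lowest Nefl value was 469, the median 508 and the highest 603 FPKM. The ranges overlapped almost entirely, and Atf6+/+ replicate 4 and Atf6-/- replicate 2 were the highest of their genotypes. The Atf6+/+ mean was 539 ± 41.9 FPKM (SD, n = 5) and the Atf6-/- mean 520.0 ± 45.4 FPKM (SD, n = 6). The log2 fold change was -0.05, with a 95% confidence interval from -0.21 to 0.11 (limma, adjusted p = 0.835). On the linear scale that interval ran from 0.863-fold to 1.08-fold.

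Nefm, which with Nefh carries the long phosphorylated tails that set axon calibre, was at 529, 539, 613, 543 and 503 FPKM in Atf6+/+ replicates 1 to 5. Among Atf6-/- cochleae its values had a minimum of 489, a median of 534 and a maximum of 637 FPKM. Again the genotypes covered the same range, and the highest values were those of Atf6+/+ replicate 3 and Atf6-/- replicate 2. The means of 546 ± 40.8 (SD, n = 5) and 544 ± 52.1 FPKM (SD, n = 6) gave a log2 fold change of -0.0057 (95% interval -0.17 to 0.16, limma adjusted p = 0.987).

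Nefh was at 786, 799, 934, 860.2 and 789.8 FPKM in Atf6+/+ replicates 1 to 5, and at 713 at the lowest, 789 at the median and 904 FPKM at the highest in Atf6-/- cochleae. Atf6+/+ replicate 3 was the highest of all 11 libraries for this subunit, and the genotypes overlapped. Its log2 fold change was -0.07 (95% interval -0.25 to 0.11, limma adjusted p = 0.783), or 0.842-fold to 1.08-fold, from means of 834 ± 63.5 (SD, n = 5) and 795 ± 76.2 FPKM (SD, n = 6). Within each genotype the coefficient of variation of the 3 subunits lay between 7.48% and 9.58%, so the spread between cochleae of 1 genotype exceeded the difference between the genotypes for each subunit.

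The pan-neuronal beta-tubulin Tubb3 showed 1 library apart. Its level was 319.6, 316, 343, 454 and 297 FPKM in Atf6+/+ replicates 1 to 5 and, in Atf6-/- cochleae, 312 at the lowest, 316 at the median and 366 FPKM at the highest. Replicate 4 of the Atf6+/+ group was thus higher than any other library, and the remaining Atf6+/+ values lay within or just below the Atf6-/- range. With all libraries the log2 fold change of Tubb3 was -0.06 (95% interval -0.27 to 0.16, limma adjusted p = 0.868), and without that library it was 0.04, on the other side of 0. Relative to Tubb3 in the same library, Nefl was 1.32-fold to 1.70-fold as high.

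Prph varied more between Atf6+/+ cochleae than any other of the 10 genes. It encodes peripherin, the filament that marks type II spiral ganglion neurons and many unmyelinated or thinly myelinated sensory neurons elsewhere. Its level was 1.57, 1.74, 13.3, 41.5 and 1.65 FPKM in Atf6+/+ replicates 1 to 5, and in Atf6-/- cochleae it had a minimum of 1.49, a median of 2.13 and a maximum of 2.40 FPKM. Replicates 3 and 4 stood far above the other 9 libraries, which all lay between 1.49 and 2.40 FPKM. The coefficient of variation was 145% in Atf6+/+ and 17.7% in Atf6-/- cochleae.

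The mean of Prph over the 5 Atf6+/+ cochleae, 11.9 ± 17.3 FPKM (SD), was set by those libraries, and the genotype difference depended on them. The log2 fold change was -1.25 with all 11 libraries (95% interval -2.87 to 0.38, limma adjusted p = 0.573). It was -0.48 without Atf6+/+ replicate 4, -0.89 without replicate 3 and -0.20 with a bone marrow score, the mean log2 level of bone marrow genes, as a covariate (limma unadjusted p = 0.815). Leaving out both, an alternative added after the values had been seen, turned it to 0.25 (95% interval -0.087 to 0.60, limma adjusted p = 0.872), from an Atf6+/+ mean of 1.65 ± 0.085 FPKM (SD, n = 3) and an Atf6-/- mean of 2.02 ± 0.357 FPKM (SD, n = 6). As a ratio to Tubb3 in the same library, Prph was at 0.00491, 0.00551, 0.0388, 0.0915 and 0.00555 in Atf6+/+ replicates 1 to 5 and between 0.00474 and 0.00757 in Atf6-/- cochleae, so the excess of replicates 3 and 4 was not shared in proportion by Tubb3.

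The upstream sequence of Prph is shown because this gene varied most between libraries. RefSeq gives 1 start site for it on the GRCm38.p6 assembly, and the 250 bases before that site lie at chr15:99054924-99055173 on the + strand, where no GENCODE gene model overlaps them. Capitals mark a TATA box (TATAAA) whose first base lies 31 bases before the start and a GC box (GGGCGG, or CCGCCC on the other strand) at 24 bases.
Prph: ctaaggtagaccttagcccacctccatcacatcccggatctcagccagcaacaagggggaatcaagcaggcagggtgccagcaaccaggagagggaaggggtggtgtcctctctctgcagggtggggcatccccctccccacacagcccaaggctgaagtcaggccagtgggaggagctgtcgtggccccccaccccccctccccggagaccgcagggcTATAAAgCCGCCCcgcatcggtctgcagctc
TATAAA stood in 12.4% of 32851 such windows of mouse genes, counting both strands, and GGGCGG in 32.7%. The window of Prph was 65.2% G and C, against a median of 52.4%.

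Markers of somatosensory ganglion neurons were high in the same libraries as Prph. Of 14 such genes, 12 had their highest value in Atf6+/+ replicate 4 and the other 2, among them the ATP-gated channel gene P2rx3, in replicate 3. The list was drawn up knowing replicate 4, so the count for that library follows from the choice and is no test. Of the 10 spiral ganglion genes, 2 (Prph and Tubb3) were highest in replicate 4, a share to be read against 15.6% of all genes tested, and 4 (Nefh, Pou4f1, Runx1 and Lypd1) in replicate 3, against 17.5%. The summed level of the 14 markers was 167 FPKM in replicate 4 and 50.3 FPKM in replicate 3. It lay between 27.2 and 35.4 FPKM in the other Atf6+/+ and between 22.03 and 34.9 FPKM in the Atf6-/- cochleae.

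Several nociceptor genes were close to 0 outside replicate 4, but not all. Scn10a, a sodium channel of nociceptors, was at 6.44 FPKM there and at most 0.15 FPKM in any other library. Trpv1, the capsaicin receptor, was at 2.84 against at most 0.20 FPKM, and Mrgprd at 1.34 against at most 0.03 FPKM. Calca, which encodes the neuropeptide CGRP, was at 62.8 FPKM and otherwise at most 1.49 FPKM, the largest such ratio among genes that reached 1 FPKM on average. Tac1, the substance P precursor gene, was at 34.1 FPKM in replicate 4 and between 4.84 and 21.2 FPKM in the other 10 libraries. Replicate 3 was above the remaining libraries for P2rx3 (4.81 FPKM, against 4.61 FPKM in replicate 4) and Avil (4.07 FPKM), but not for Prdm12 (0.11 FPKM). The part of these neurons in the levels of Prph and Tubb3 was not tested.

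Only 10 of 13601 genes outside the members, averaging 1 FPKM or more, were over 3 times higher in Atf6+/+ replicate 4 than in every other library. The 8 with the largest ratios included Calca, Fabp4, Cfd, Tmem233, Avil, Gap43 and Trarg1. Calca and Avil (advillin) are sensory ganglion genes, whereas Fabp4, Cfd and Trarg1 are genes of fat cells. Fabp4 was at 47.0 FPKM in this library and at most 3.65 FPKM elsewhere, and Cfd at 11.6 and at most 1.44 FPKM.

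**Figure D2:**
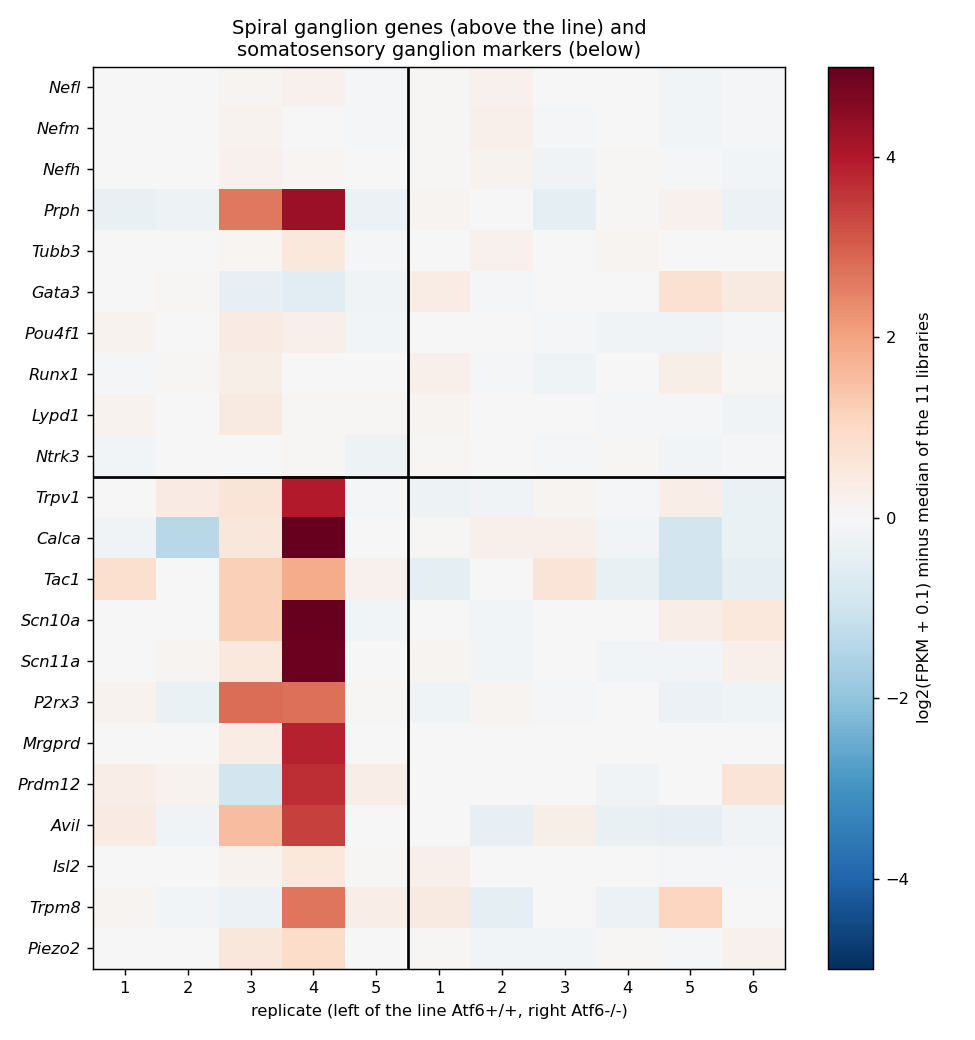
Level of the 10 genes (above the horizontal line) and of 12 somatosensory ganglion markers (below it) in each library, coloured by log2(FPKM + 0.1) minus the median of the 11 libraries, with the colour scale ending at 5 in either direction. The column of Atf6+/+ replicate 4 is dark for Prph and most markers, while the neurofilament rows stay pale throughout.

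Among the transcription factors, Gata3 was higher and Pou4f1 lower in Atf6-/- cochleae at an unadjusted p, and Runx1 showed no such difference. Gata3, a zinc finger factor needed for the formation of spiral ganglion neurons and also present in hair cells and supporting cells, was at 18.4, 19.1, 13.7, 12.7 and 16.2 FPKM in Atf6+/+ replicates 1 to 5. In Atf6-/- replicates 1 to 6 it was at 24.1, 17.6, 17.9, 18.7, 31.4 and 25.0 FPKM, with a median of 21.4 FPKM. Replicates 1, 5 and 6 of the Atf6-/- group were above every Atf6+/+ cochlea and the other 3 lay inside the Atf6+/+ range.

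The Atf6+/+ mean of Gata3 was 16.0 ± 2.80 FPKM (SD, n = 5) and the Atf6-/- mean 22.4 ± 5.44 FPKM (SD, n = 6). The fitted difference was 1.38-fold (95% interval 1.09 to 1.76). The log2 fold change was 0.47 (SE 0.16, limma unadjusted p = 0.0122, adjusted p = 0.415). It stayed above 0 with each library left out in turn, from 0.37 without Atf6-/- replicate 5 to 0.54 without Atf6+/+ replicate 2, at an unadjusted p between 0.00684 and 0.0375. Without both Atf6+/+ replicates 3 and 4 it was 0.30 (limma unadjusted p = 0.118), and with a bone marrow score as a covariate it was 0.25 (limma unadjusted p = 0.187).

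Of 10 hair cell markers, 2 outer hair cell genes, Ocm and Slc26a5, were highest in the same 3 libraries as Gata3, and the other 8 had other orders. Ocm, which encodes the calcium buffer oncomodulin of outer hair cells, was at 103, 106 and 82.9 FPKM in Atf6-/- replicates 1, 5 and 6, the libraries with the most Gata3, and at most 63.9 FPKM in any other library. Slc26a5, the gene of the outer hair cell motor prestin, was at 2.72, 4.11 and 2.25 FPKM in those libraries and at most 1.17 FPKM elsewhere. By contrast, 7 of the 10 markers were highest in Atf6+/+ replicate 1, where Gata3 was at 18.4 FPKM. In Atf6-/- replicate 5, the library with the most Gata3, Chrna9, a nicotinic receptor subunit of outer hair cells, was at 1.60 FPKM against 4.18 FPKM in Atf6+/+ replicate 1. Otof, the otoferlin gene needed for release at inner hair cell synapses, was at 9.95 against 31.5 FPKM, and Loxhd1, a gene of the hair bundle, was at its lowest of all 11 libraries with 1.05 FPKM.

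Over the 11 libraries the Pearson correlation of log2 levels of Gata3 was 0.97 with Slc26a5 and 0.92 with Ocm, and between -0.32 and 0.47 with the other 8 markers. Without Atf6+/+ replicates 3 and 4 it was 0.95, 0.87 and, for the other 8, between -0.55 and -0.069. The summed hair cell list gave 0.82 with all libraries and 0.64 without those 2, and the summed supporting cell list 0.79 and 0.59. Ocm alone was at 16.9 to 106 FPKM, against 115 to 232 FPKM for the whole hair cell sum, and so weighs heavily in it. Gata3 ran against Nefl (-0.68, and -0.45 without those libraries) and the summed axonal genes (-0.83 and -0.67), while its correlation with Prph turned from -0.61 to 0.57 when they were left out. These are descriptions over libraries that share their scaling, and the part of hair cells and supporting cells in the level of Gata3 was not tested. The other genes most like Gata3, chosen after their values had been seen, were Sipa1l1, Trpm3, Wnk2, Dlg5, Arnt2, Fasn and Emilin2, with correlations between 0.952 and 0.969.

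Pou4f1, also known as Brn3a, a POU factor that specifies sensory neurons and in the adult ganglion marks some type I subtypes, was at 10.2, 9.05, 11.97, 10.8 and 8.24 FPKM in Atf6+/+ replicates 1 to 5. Its values in Atf6-/- cochleae had a minimum of 7.90, a median of 8.71 and a maximum of 9.10 FPKM. The Atf6-/- cochleae were thus gathered at the lower end of the Atf6+/+ range, and 2 of the 6 lay below it. The means were 10.1 ± 1.46 (SD, n = 5) and 8.58 ± 0.521 FPKM (SD, n = 6), with a log2 fold change of -0.22 (95% interval -0.41 to -0.022, limma unadjusted p = 0.0320, adjusted p = 0.476). Without Atf6+/+ replicate 3 the log2 fold change was -0.15 (limma unadjusted p = 0.0900), without replicate 4 it was -0.19 (limma unadjusted p = 0.0753), and without both it was -0.09. The unadjusted p also rose above 0.05 without Atf6+/+ replicate 1 (limma, 0.0592) and without Atf6-/- replicate 4 or 5 (0.0657 and 0.0620). Rescaling to TPM gave -0.16 (limma unadjusted p = 0.144), and a bone marrow score as a covariate -0.14 (limma unadjusted p = 0.228).

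Runx1, a runt-domain factor that marks type Ib and Ic neurons, was the least abundant member in Atf6+/+ replicates 3 and 4 and stood above only Prph in the other 9 libraries. Its level was 5.34, 6.10, 7.14, 5.70 and 5.67 FPKM in Atf6+/+ replicates 1 to 5, and 4.90 at the lowest, 5.94 at the median and 7.05 FPKM at the highest in Atf6-/- cochleae. The ranges were nearly the same, with a log2 fold change of 0.0074 (95% interval -0.22 to 0.24, limma adjusted p = 0.988).

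The windows upstream of Gata3 and Pou4f1 are shown because these were the members counted at the unadjusted p. Both are RefSeq windows of 250 bases on GRCm38.p6, read on the - strand of each gene. That of Gata3, at chr2:9878601-9878850, lies within introns of longer Gata3 transcripts in GENCODE and overlaps an exon of Gm13256 on the opposite strand, while that of Pou4f1, at chr14:104468000-104468249, overlaps no gene model. Capitals mark GC boxes (GGGCGG or CCGCCC) and E-boxes (CANNTG), the last also known as the binding motif of many neuronal basic helix-loop-helix factors.
Gata3: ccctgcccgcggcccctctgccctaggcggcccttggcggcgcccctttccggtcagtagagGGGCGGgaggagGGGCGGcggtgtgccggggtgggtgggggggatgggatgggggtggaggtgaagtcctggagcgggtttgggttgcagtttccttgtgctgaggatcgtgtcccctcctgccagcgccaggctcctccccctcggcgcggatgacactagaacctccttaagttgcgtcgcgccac
Pou4f1: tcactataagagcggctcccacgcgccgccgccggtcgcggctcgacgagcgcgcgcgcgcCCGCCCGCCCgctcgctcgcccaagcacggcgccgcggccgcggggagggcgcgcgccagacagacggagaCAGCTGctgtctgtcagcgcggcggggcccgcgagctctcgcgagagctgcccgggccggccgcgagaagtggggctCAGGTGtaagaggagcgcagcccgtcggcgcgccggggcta
Gata3 had 2 GC boxes and no E-box. Pou4f1 had 2 GC boxes, which overlap each other by 2 bases, and 2 E-boxes. An E-box stood in 66.2% of the 32851 windows, and the share of G and C was 70.0% for Gata3 and 78.0% for Pou4f1.

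RefSeq windows were also at hand for Tubb3, Runx1 and Lypd1. The ER stress response element and the UPR element (TGACGTGG), motifs bound by ATF6 with its partners, were searched on both strands in the windows of all 6 genes, and these letters were in none of them. They stood in 0.113% and 0.563% of all windows. The window of Tubb3 held 1 match to the C/EBP-ATF element (TGATGNAA), found in 3.45% of all windows. Nefl, Nefm, Nefh and Ntrk3 were not searched.

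Of the 10 genes, Lypd1 came closest to separating the genotypes. It encodes a membrane-anchored protein of the Ly6 family that modulates nicotinic acetylcholine receptors and marks type Ic neurons. Its level was 96.6, 86.28, 119, 90.0 and 88.8 FPKM in Atf6+/+ replicates 1 to 5 and 95.9, 86.27, 84.0, 83.8, 80.7 and 76.2 FPKM in Atf6-/- replicates 1 to 6. Of the 6 Atf6-/- cochleae, 5 were below every Atf6+/+ cochlea and replicate 1 was above 3 of them.

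The means of Lypd1 were 96.2 ± 13.5 (SD, n = 5) and 84.5 ± 6.59 FPKM (SD, n = 6). The log2 fold change was -0.18 (95% interval -0.36 to 0.0013, limma unadjusted p = 0.0514, adjusted p = 0.505). Without Atf6+/+ replicate 4 the unadjusted p was 0.0482 (limma), and without replicate 3, the highest of the 11 libraries for this gene, the log2 fold change was -0.10 (limma unadjusted p = 0.132). Across the 11 libraries Lypd1 followed Pou4f1 more closely than any other member (Pearson r = 0.80, a description).

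Ntrk3, the neurotrophin-3 receptor TrkC that supports type I neurons during development, was the least variable member in Atf6-/- cochleae. Its level was 15.7, 17.1, 17.4, 17.6 and 14.4 FPKM in Atf6+/+ replicates 1 to 5 and between 15.5 and 17.9 FPKM, with a median of 16.7, in Atf6-/- cochleae. The genotypes overlapped throughout, at a log2 fold change of 0.02 (95% interval -0.11 to 0.16, limma adjusted p = 0.917).

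**Figure D3:**
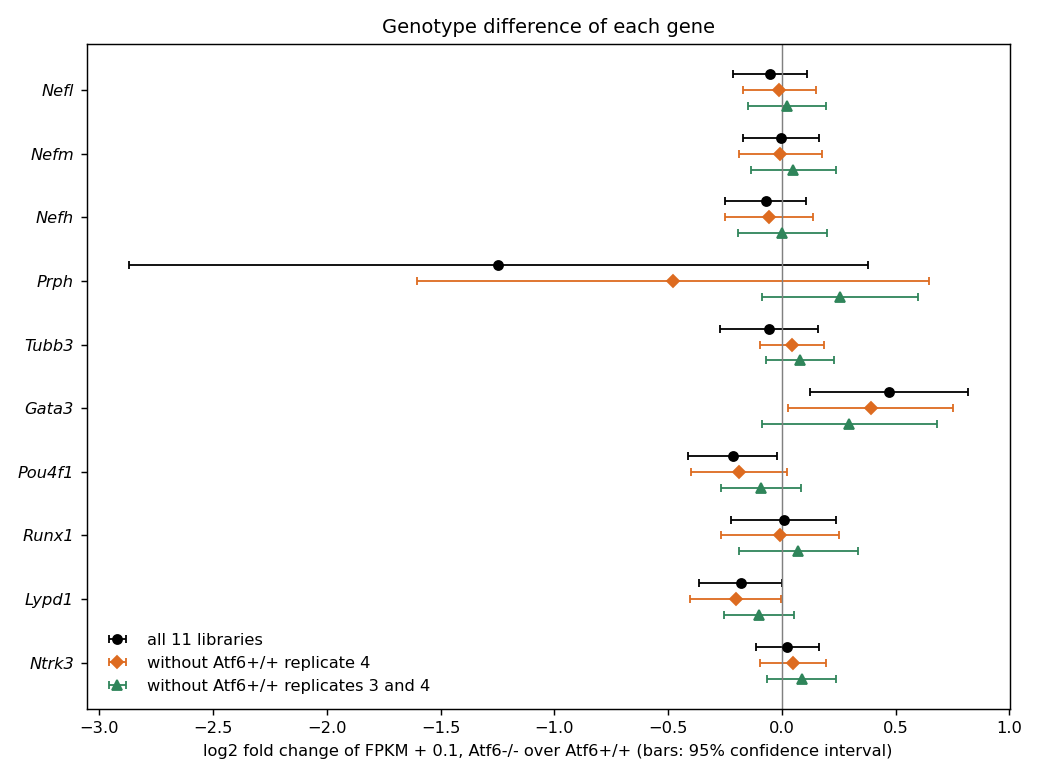
Log2 fold change of FPKM + 0.1 of each gene in Atf6-/- over Atf6+/+ cochleae (horizontal axis, points) with 95% confidence intervals (bars), from all 11 libraries, without Atf6+/+ replicate 4, and without Atf6+/+ replicates 3 and 4. The Prph point moves from -1.25 to 0.25 while the neurofilament points stay between -0.07 and 0.05, and the Gata3 interval reaches 0 only when both libraries are left out.

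By level, the 10 genes stood in the order Nefh, Nefm, Nefl, Tubb3, Lypd1, Gata3, Ntrk3, Pou4f1, Prph and Runx1 by their mean over all libraries. The order between neighbours held in all 11 libraries for Nefh and Nefm, Nefl and Tubb3, Tubb3 and Lypd1, Lypd1 and Gata3, and Ntrk3 and Pou4f1. It held in 9 of 11 for Gata3 over Ntrk3 and for Pou4f1 over Prph, and in only 2 of 11 for Prph over Runx1, the libraries being Atf6+/+ replicates 3 and 4. Among pairs of members, log2 levels over the 11 libraries went together most for Nefm and Nefh (r = 0.87), Prph and Tubb3 (0.82), Nefl and each of the other neurofilaments (0.81 for both), Pou4f1 and Lypd1 (0.80) and Nefl and Tubb3 (0.78). The value for Prph and Tubb3 rested on Atf6+/+ replicate 4, since it was 0.39 without that library.

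Genes that followed the mean of the neurofilament triplet most closely, among those outside the members that averaged 1 FPKM or more, included other neuronal genes. Over 11 libraries they were Epb41l3 (r = 0.945), Lrsam1, Ogfrl1, Kif5a, Ogdhl, Map6, Fgf18 and Tceal6 (r = 0.910). Kif5a is a kinesin that carries neurofilaments along axons, and Map6 stabilises neuronal microtubules. Without Atf6+/+ replicate 4 the 8 genes were Cend1 (r = 0.955), Klc1, Epb41l3, Lrsam1, Pitpnm1, Atp6v1b2, Sez6l and Kif5a (r = 0.923). The Atf6+/+ and Atf6-/- means were 117 and 114 FPKM for Kif5a, and 397 and 375 FPKM for Klc1, a kinesin light chain.

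Among other genes of the axonal cytoskeleton and its transport, most log2 fold changes were below 0 and small. Of 20 such genes, none passed at an adjusted p, none was higher and 3 were lower at the unadjusted p, beside 4.48% higher and 5.37% lower of all genes tested. The log2 fold change was below 0 for 17 of the 20, against 54.7% of all genes, with a median of -0.05 against -0.01. The most abundant were Stmn3 (408 to 613 FPKM over the 11 libraries), Uchl1 (392 to 653 FPKM) and Tubb4a (265 to 396 FPKM). The 3 lower ones were Sncg, which encodes gamma-synuclein (log2 fold change -0.67, limma adjusted p = 0.400), Stmn2, a tubulin-binding growth cone protein (-0.25, adjusted p = 0.467), and Gap43, the growth-associated protein (-0.89, adjusted p = 0.442). Gap43 was at 20.03 FPKM in Atf6+/+ replicate 4, between 3.63 and 5.51 FPKM in the other Atf6+/+ and between 2.99 and 3.62 FPKM in the Atf6-/- cochleae. Without both Atf6+/+ replicates 3 and 4, Gap43 alone of these was at an unadjusted p under 0.05 (log2 fold change -0.41). Of the 20 genes, 9 were highest in Atf6+/+ replicate 4.

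Subtype and transmitter genes of spiral ganglion neurons were present in every library, so the defining markers of the labelled tissue were there. Calb2 (calretinin, of type Ia neurons) was at 1646 to 2025 FPKM, Pvalb (parvalbumin) at 527 to 817 FPKM and Slc17a7 (the vesicular glutamate transporter VGLUT1) at 217 to 269 FPKM. Of 20 such genes, 1 was higher and 4 were lower at the unadjusted p and none passed at an adjusted p, beside the same 4.48% and 5.37% of all genes, and the median log2 fold change was -0.07. The lower ones were Slc17a6, the transporter VGLUT2 (log2 fold change -0.31, limma adjusted p = 0.400), Kcnc2, a fast potassium channel (-0.42, adjusted p = 0.431), Pvalb (-0.23, adjusted p = 0.491) and Nrn1, neuritin (-0.20, adjusted p = 0.505). The higher one was Lrrc52 (0.27, adjusted p = 0.505). Pvalb and Nrn1 were no longer counted without either of Atf6+/+ replicates 3 and 4, Lrrc52 without replicate 3 or without both (limma unadjusted p = 0.104 and 0.113), and Kcnc2 without both (0.0867). Without both, 3 genes of the list were counted, Slc17a6 and others that were not counted with all libraries.

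Slc17a6 was at 43.3, 39.0, 49.0, 38.2 and 33.6 FPKM in Atf6+/+ replicates 1 to 5, and at 28.9 at the lowest, 31.5 at the median and 39.0 FPKM at the highest in Atf6-/- cochleae. The ranges overlapped, and without both Atf6+/+ replicates 3 and 4 its log2 fold change was -0.24 (limma unadjusted p = 0.0416). Calb1, another subtype gene, ranged from 29.0 to 38.9 FPKM in Atf6+/+ and from 22.3 to 37.8 FPKM in Atf6-/- cochleae.

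None of 6 neurotrophins and receptors was counted in either direction. Ngfr, the low-affinity receptor, was the most abundant (45.2 to 68.3 FPKM), followed by Ntrk2, the receptor of BDNF (32.2 to 43.8 FPKM). Of 21 pan-neuronal genes, none was higher and 1 was lower at the unadjusted p, beside 4.48% and 5.37% of all genes tested. The lower one was the calcium sensor Syt1 (log2 fold change -0.40, limma adjusted p = 0.467), which was not counted without either of Atf6+/+ replicates 3 and 4. Snap25 (926 to 1293 FPKM) and Cplx1 (644 to 827 FPKM) were among the most abundant genes of the list. Its summed level was 4064 to 5315 FPKM in Atf6+/+ and 4350 to 5036 FPKM in Atf6-/- cochleae, and 10 of its 21 genes were highest in Atf6+/+ replicate 3. With the mean log2 level of that list as a covariate, Gata3 kept a log2 fold change of 0.40 (limma unadjusted p = 0.0235) and Pou4f1 of -0.15 (limma unadjusted p = 0.0345).

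**Figure D4:**
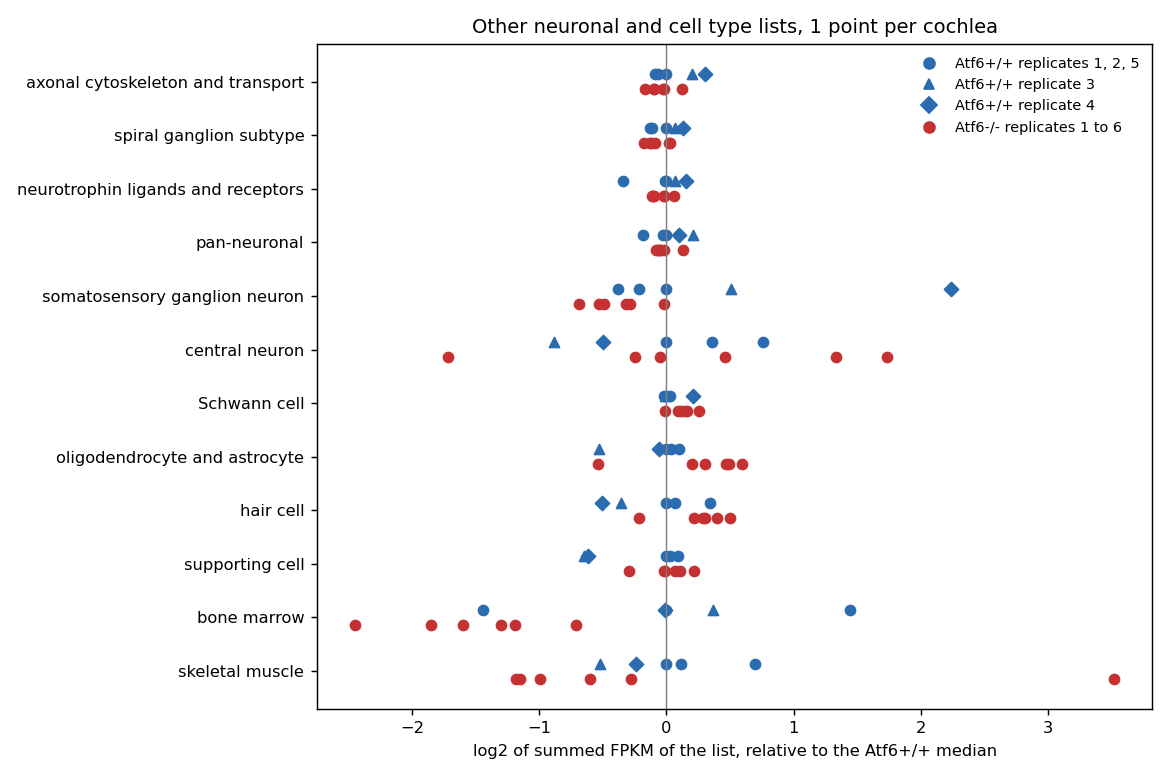
Summed FPKM of each of 12 other gene lists in each library, as log2 relative to the Atf6+/+ median (horizontal axis), with 1 point per cochlea and the genotypes in separate rows. The 4 lists at the top span less than 1 unit, Atf6+/+ replicate 4 lies over 2 units above the median for the somatosensory list, and the central neuron, bone marrow and skeletal muscle lists span the widest ranges.

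Markers of other cells differed between libraries as well. Over the 11 libraries the log2 sums of these lists correlated with the mean of the neurofilament triplet at -0.83 for supporting cells, -0.71 for hair cells and between -0.26 and 0.43 for the others. Ocm weighs heavily in the hair cell sum. Of 14 somatosensory markers 3 were lower at the unadjusted p, Tac1, P2rx3 and Avil (limma adjusted p = 0.398, 0.505 and 0.493), and none was without Atf6+/+ replicates 3 and 4. Bone marrow genes had a summed level of 2968 to 21885 FPKM in Atf6+/+ and 1475 to 4927 FPKM in Atf6-/- cochleae. Most of that sum was the haemoglobin gene Hba-a1, at 2209 to 19706 FPKM in Atf6+/+ and 1272 to 4173 FPKM in Atf6-/- cochleae. Of the 13 genes, 7 were lower at the unadjusted p (S100a8, S100a9, Ltf, Cd79a, Alas2, Hbb-bt and Hba-a1). By the same criterion 4.48% of all genes tested were higher and 5.37% lower. Of 10 hair cell markers 2 were higher, Ocm and Slc26a5 (log2 fold change 1.16 and 1.197, limma adjusted p = 0.391 and 0.475), and Slc26a5 was no longer counted without either of Atf6+/+ replicates 3 and 4, nor Ocm without both (0.61, limma unadjusted p = 0.0765). The summed hair cell level was lowest in Atf6+/+ replicate 4 at 115 FPKM, and the summed supporting cell level lowest in replicate 3 at 344 FPKM, while the upper ends were 232 and 629 FPKM.

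Of 8 supporting cell markers 1 was higher, Fgfr3 (log2 fold change 0.59, limma adjusted p = 0.133), beside 4.48% of all genes tested. Of 10 Schwann cell markers 2 were higher, among them the myelin gene Mag (0.33, adjusted p = 0.481), and of 8 oligodendrocyte and astrocyte markers 1, Mobp (0.46, adjusted p = 0.488). All 8 of the latter had a log2 fold change above 0, with a median of 0.46, and 8 were counted without Atf6-/- replicate 5. Mag and Mobp were no longer counted without Atf6+/+ replicate 3 (limma unadjusted p = 0.0928 and 0.107) or without both replicates 3 and 4. None of 6 skeletal muscle markers and none of 5 tested central neuron markers was counted, and no marker of any list was at 0 in all libraries. The summed central neuron markers were at 10.4 FPKM in Atf6-/- replicate 2 and 7.87 FPKM in replicate 3, against 0.95 to 5.27 FPKM in the other libraries. Atf6-/- replicate 2 was also the Atf6-/- library with the most Nefl, Nefm and Nefh, and without it their log2 fold changes were -0.09, -0.05 and -0.11. The part of these cells in the members' levels was not tested.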

How the data were processed

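The authors extracted RNA from whole cochleae, had stranded mRNA libraries sequenced as paired-end reads, aligned them to GRCm39 with HISAT2 and estimated expression with RSEM, and they deposited FPKM values with 2 decimals for each library. The submitters' processing notes give HISAT2 as version 2.0.4. Columns of the authors' own comparisons, from DESeq2, hold fold changes and p-values and were not used. The study's methods give 1 intended number of reads for all samples, but no read counts entered the work, so the depth reached by each library and the counting error behind each value are unknown. FPKM summed to between 462005 and 537926 per library, and log2 values of pairs of libraries correlated at 0.963 to 0.990 over genes.

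Tables of both genotypes were joined by gene. Genes averaging 0.1 FPKM or more were tested on log2(FPKM + 0.1), so fold changes of low genes are understated, in a linear model of genotype alone with a mean-variance trend (limma 3.58.1, R 4.3.3), two-sided, with Benjamini-Hochberg adjustment over all genes tested. The unadjusted criterion, a p no higher than 0.05 and a log2 fold change beyond 0.05 in either direction, takes its cutoffs from the study, whose p-values came from another tool and whose fold change scale was read here as log2. The model was tested on simulated data. Levels, lists and plots were made in Python 3.11.15 with pandas 2.3.3, numpy 2.4.6 and matplotlib 3.10.9. No value column was without a sample.

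The members and the 12 other lists (axonal, subtype, neurotrophin, pan-neuronal, somatosensory, central neuron, Schwann, oligodendrocyte and astrocyte, hair cell, supporting cell, bone marrow, skeletal muscle) were chosen with earlier results of these data known. Named genes were all members, Atf6, the 3 most abundant genes of each list and those passing either criterion, the 8 genes most like the neurofilament mean by Pearson correlation over all libraries and the 8 without Atf6+/+ replicate 4, and the 8 with the largest ratio of that library to the highest of the others. Some genes that this rule names are not reported here. Alternatives were pseudocounts of 1 and 0.01, no filter, a filter of 1 FPKM, robust variance, median-of-ratios scaling, a conversion to TPM, a pan-neuronal or a bone marrow score (the mean log2 level of the list) as covariate, a replicate block, each library left out, and, added after the values were seen, Atf6+/+ replicates 3 and 4 left out together. Genotypes share replicate numbers, which no label ties to a litter or day. Promoter windows are from RefSeq on GRCm38.p6, with overlaps from GENCODE. No coordinates were carried to GRCm39.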

Additional observations from a re-analysis of the deposited data

Results flagged for a closer look

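In 182 groups of values (a gene or a summed list within 1 genotype), 28 had a highest or lowest library far from the nearest other one by Dixon's criterion at the 95% level, which chance passes in about 1 of 20 groups of genes not chosen for their values, as some here were. None was a value of the 10 members, although Prph (41.5 FPKM) and Tubb3 (454 FPKM) were also highest in Atf6+/+ replicate 4. For Prph the nearest other value, in Atf6+/+ replicate 3, was itself high at 13.3 FPKM. Atf6+/+ replicate 4 held 11 of the 28, and in each it was the highest of its genotype. Of those 11, 7 are genes that were named for their ratio of this library to all others, and the somatosensory list was drawn up knowing that library, so that their place was fixed by that choice. These were the sensory neuron genes Calca (62.79 FPKM), Avil (15.35), Tmem233 (8.03) and Isl2 (20.92), the axonal genes Gap43 (20.03) and Uchl1 (653.49), the fat cell genes Fabp4 (46.96), Cfd (11.57) and Trarg1 (9.73), and the summed somatosensory (167.16) and Schwann cell (6940.53) lists.

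Atf6-/- replicate 2 was apart for neuronal genes, with Cend1 at 353.11, Cplx1 at 752.75, Sez6l at 1.45 and the summed pan-neuronal list at 5036.15 FPKM. Atf6-/- replicate 3 was apart for skeletal muscle genes, with Acta1 at 9.59, Mylpf at 7.58, Tnnt3 at 8.43 and the summed list at 38.41 FPKM. Atf6-/- replicate 4 was apart for the neutrophil genes Ltf (39.65), S100a8 (229.32) and S100a9 (309.04 FPKM), and Atf6+/+ replicate 3 for S100a8 (873.9 FPKM). Single values apart were Hba-a1 (19705.5) and Neurod2 (0.48 FPKM) in Atf6+/+ replicate 5, Isl2 in Atf6-/- replicate 1 (17.36 FPKM), Cfd in Atf6-/- replicate 6 (0.59 FPKM) and, as the lowest of its genotype, Gfap in Atf6-/- replicate 5 (102.8 FPKM).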

How the results depend on the processing

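No alternative gave any of the 10 genes an adjusted p under 0.05. The count at the unadjusted p, 2 with all libraries, became 1 after rescaling to TPM, 0 with the bone marrow score and 0 without Atf6+/+ replicates 3 and 4, and ranged from 1 to 3 with each library left out (1 without Atf6+/+ replicate 1 or 3 or Atf6-/- replicate 4 or 5). Over all genes the same criterion counted 1592, and 1856 after rescaling to TPM. It counted 862 with the bone marrow score, 1001 without both replicates and between 1197 and 1865 with each library left out. The count of genes whose genotypes did not overlap ranged from 0 to 1, the 1 being Lypd1 without Atf6-/- replicate 1. The median log2 fold change of the 10 was 0.061 without Atf6+/+ replicates 3 and 4. For the 10 genes, 195 of 220 values of the log2 fold change under an alternative kept their direction and 25 reversed it. Outside Prph the reversed values reached at most 0.080, and the cause was not tested.

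With the bone marrow score the reversed values were 0.0018 for Nefl, 0.057 for Nefm, 0.0056 for Nefh and 0.062 for Tubb3. On the TPM scale, where all genes had a median of 0.04 instead of -0.01, they were 0.0054 for Nefl and 0.051 for Nefm. Median-of-ratios scaling gave 0.0063 and the pan-neuronal score 0.046 for Nefm. Without Atf6+/+ replicates 3 and 4 the values were 0.023 for Nefl, 0.050 for Nefm, 0.0013 for Nefh, 0.25 for Prph and 0.080 for Tubb3. With each library left out, Nefm ranged from -0.052 to 0.037, Tubb3 from -0.11 to 0.045, Runx1 from -0.039 to 0.072 and Ntrk3 from -0.023 to 0.049.

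The replicate block gave 0.0043 for Nefm, 0.43 for Gata3 (limma unadjusted p = 0.0150) and -0.22 for Pou4f1 (limma unadjusted p = 0.0475), and left the count at the unadjusted p at 2. Deviations of libraries with the same number correlated between -0.210 and 0.119. No label ties the numbers to a litter or day, so whether they mark pairs is not known. Atf6-/- replicate 6 has no partner and adds nothing to that fit.

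Counts of other lists also moved with single libraries. At the unadjusted p, the subtype list went from 5 genes to 2 without Atf6+/+ replicate 3 and 3 without replicate 4 or without both. The somatosensory list went from 3 to 1 without either, the pan-neuronal list from 1 to 0 and the bone marrow list from 7 to 3, again without either. The oligodendrocyte and astrocyte list went from 1 to 0 without Atf6+/+ replicate 3 and to 8 without Atf6-/- replicate 5. Without read counts, the part of counting error in low genes such as Prph and Runx1 is not known.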
